A study of Mus musculus with 2 samples.

Results

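The muscle Kelch genes described here are Klhl31, Klhl40, Klhl41, Klhl30, Klhl33, Klhl34, Klhl38 and Klhl21, 8 of the 14451 annotated endogenous genes that held reads in gastrocnemius muscle. They were chosen by name: every transcript model that the deposited tables assign to an annotated gene with 1 of these symbols was counted, which gave 56 models in replicate 1 and 62 in replicate 2. Models that the tables class as antisense and that lie over 1 of the genes on the other strand were counted apart. RNA was read as long reads, 1 read per cDNA molecule, in 2 libraries of 1 group: gastrocnemius of adult female B6CASTF1/J mice, the F1 hybrid of a C57BL/6J mother and a CAST/EiJ father, aged 18 to 20 months, with 2 µg of RNA at the start and no treatment. The labels call the libraries biological replicates 1 and 2 but give both the same donor record, and the number of mice behind each is not given in the sources used here, so p-values measure the difference between these libraries only, which may be technical. All results are comparisons of replicate 1 with replicate 2, not of conditions.

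Kelch proteins of this family carry a BTB domain and a row of Kelch repeats that folds into a propeller. The BTB domain binds the scaffold Cul3, and the propeller binds the protein to be ubiquitinated, so that each member gives a Cul3 ubiquitin ligase its own set of targets. In skeletal muscle Klhl40 and Klhl41 are best known for the opposite role of keeping thin filament proteins stable, and loss of either causes nemaline myopathy, a disease with rod-like protein aggregates in the fibres.

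The libraries held 1117891 reads of annotated endogenous genes in replicate 1 and 975696 in replicate 2, and levels are given as counts per 1000000 of these reads (CPM). A count of 0 reads allows a level of up to 2.68 CPM in replicate 1 and 3.07 CPM in replicate 2. All 5 markers of skeletal muscle (Ckm, Acta1, Myh4, Tnnc2 and Des) were abundant, and they summed to 170204 and 160552 CPM. Of these, 3 were higher in replicate 1, and 1, Myh4, was 1.74-fold higher in replicate 2. The libraries differed in their slow fibre markers: 12 of 13 had enough reads to test, all 12 were higher in replicate 2, and the list summed to 881 CPM in replicate 1 and 5748 CPM in replicate 2, with no marker at 0. Fibroblast markers summed to 325 and 451 CPM (3 of 5 higher in replicate 2, 1 higher in replicate 1), and smooth muscle and pericyte markers to 165 and 248 CPM (2 of 6 higher in replicate 2). Satellite cell and myoblast markers summed to 99.3 and 39.97 CPM (1 of 4 higher in replicate 1, Pax7 at 0 in both), macrophage markers to 45.6 and 13.3 CPM (1 of 4 higher in replicate 1, Cd68 at 0 in both) and endothelial markers to 59.0 and 37.9 CPM (0 of 4 called). Of 6 cardiomyocyte markers 5 were at 0 in both libraries, and the list summed to 0 and 5.12 CPM. With the scatter between the libraries added in an edgeR exact test, 6 of the 12 slow fibre calls stayed. Of the skeletal muscle, fibroblast, smooth muscle, satellite cell and macrophage calls 0 did. That scatter was estimated from these same 2 libraries, so it holds the difference under test. Here and below, a call lost in this test is therefore no separate check. The ratio between the libraries also moved with transcript length. With the tested genes split by length into 10 groups, the log2 ratio of replicate 1 over replicate 2 had a median of 0.38 in the group of shortest genes and -0.31 in each of the 2 groups of longest genes.

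All 8 muscle Kelch genes were read in both libraries. Together they held 821 reads in replicate 1 and 772 in replicate 2, which is 763 ± 40.2 CPM (SD, n = 2). A long read stands for 1 molecule whatever its length, so CPM was not divided by length; the annotated length of each gene is given beside its level. Klhl40, which stabilises the thin filament proteins nebulin and leiomodin 3, had the highest level. It held 236 reads (211 CPM) in replicate 1 and 194 reads (199 CPM) in replicate 2, with a mean of 205 ± 8.68 CPM over 2370 nt of annotated transcript. Klhl41, the other nemaline myopathy gene of the family and a partner of nebulin and Nrap, held 102 reads (91.2 CPM) and 83 reads (85.1 CPM), a mean of 88.2 ± 4.37 CPM over 2529 nt. Klhl40 stood above Klhl41 in each library.

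Klhl21, a Cul3 adaptor known from cell division, where it brings Aurora B to the spindle midzone, held 135 reads (121 CPM) in replicate 1 and 162 reads (166 CPM) in replicate 2, a mean of 143 ± 32.0 CPM over 3986 nt. Klhl31, for which the actin crosslinker filamin C has been described as a target, held 129 reads (115 CPM) and 128 reads (131 CPM), a mean of 123 ± 11.2 CPM over 6494 nt. In replicate 1 these genes lay close together, and in replicate 2 Klhl21 was the higher of the pair.

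The other 4 members are less studied. Klhl30 held 109 reads (97.5 CPM) and 88 reads (90.2 CPM), a mean of 93.8 ± 5.17 CPM over 3089 nt. Klhl33 held 54 reads (48.3 CPM) and 62 reads (63.5 CPM), a mean of 55.9 ± 10.8 CPM over 5513 nt. Klhl38 held 48 reads (42.9 CPM) and 41 reads (42.0 CPM), a mean of 42.5 ± 0.648 CPM over 2212 nt. Klhl34, an X-linked gene with a single exon, had the lowest level, with 8 reads (7.16 CPM) and 14 reads (14.3 CPM), a mean of 10.8 ± 5.09 CPM over 1935 nt. Its annotated transcript has a 3′ UTR of 0 nt, and its RefSeq span ends 691 nt beyond the GENCODE M21 end. Reads lying wholly past the annotated end may therefore be missing from its level.

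The levels spanned 19.1-fold from Klhl34 to Klhl40. Between neighbours in this order, the 95% counting intervals were apart in both libraries only for Klhl38 over Klhl34. They were apart in replicate 1 alone for Klhl40 over Klhl21 and for Klhl41 over Klhl33. The neighbours Klhl21 and Klhl31, Klhl31 and Klhl30, Klhl30 and Klhl41, and Klhl33 and Klhl38 had overlapping intervals in both libraries. Even so, both levels of Klhl31 lay above both of Klhl30, and both levels of Klhl33 above both of Klhl38. This did not hold for Klhl21 and Klhl31 or for Klhl30 and Klhl41. Overlap of intervals is no test of a difference, and neighbours were not tested against each other. Klhl40 ranked 524 of 14451 genes by mean CPM and Klhl34 ranked 6152.

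**Figure D1:**
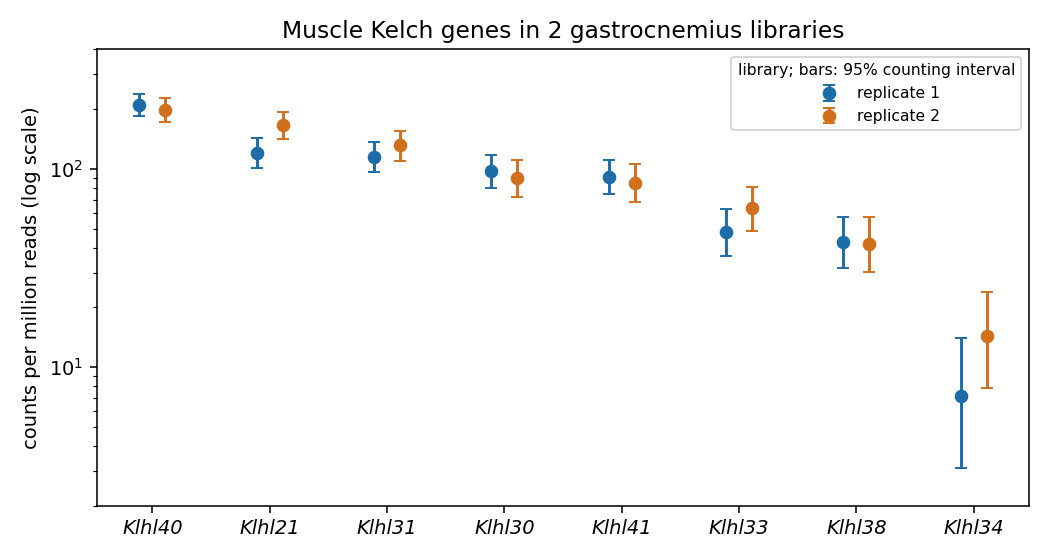
CPM (vertical log axis) of the 8 muscle Kelch genes, ordered by mean, in replicate 1 (blue) and replicate 2 (orange); bars are exact 95% Poisson intervals, which cover counting error only. Klhl40 is the highest at 211 and 199 CPM and Klhl34 the lowest at 7.16 and 14.3 CPM, and the points of replicate 1 and replicate 2 are farthest apart for Klhl34.

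The members made up about the same share of the whole BTB-Kelch family in both libraries. The annotation holds 50 genes of this family by name, and 42 of them had reads. The members took 50.1% of the family's 1639 reads in replicate 1 (Wilson 95% interval 47.7 to 52.5) and 51.4% of 1501 reads in replicate 2 (48.9 to 54.0). By mean CPM they held ranks 1, 3, 4, 5, 7, 10, 13 and 23 of the 42. The most abundant BTB-Kelch genes outside the members were Ivns1abp (158 ± 7.07 CPM), Klhl8 (91.0 ± 4.09 CPM) and Klhl22 (64.2 ± 6.67 CPM).

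Klhl21 was the 1 member of 8 whose level differed between the libraries. Across all genes, 11.7% of 8394 tested were called in the same comparison, 7.06% as higher in replicate 2 and 4.61% as higher in replicate 1, so 1 call among 8 members is near the background. Klhl21 was 1.49-fold higher in replicate 2 (exact 95% interval 1.18 to 1.89; exact binomial test with Benjamini-Hochberg adjustment, adjusted p = 0.00897). The binomial test knows counting error only, and the edgeR test named next takes its scatter from the same 2 libraries. The call was lost when reads were scaled to library totals (adjusted p = 0.0504), when ratios were centred among genes of like length (adjusted p = 0.121) and when the scatter between the libraries was added in an edgeR exact test (adjusted p = 1), and over all alternatives the adjusted p ran from 0.000550 to 1. The log2 ratio was -0.57 in the main comparison and in the edgeR test, -0.46 with library totals and -0.42 with centring by length. The slow fibre markers given above were higher in the same library; their part in the Klhl21 difference was not tested. In bulk tissue, fewer cells of a type and less RNA per cell cannot be told apart.

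The other 7 members were not called. Their log2 ratios of replicate 1 over replicate 2 were -0.0024 for Klhl30, -0.014 for Klhl41, -0.028 for Klhl40, -0.084 for Klhl38, -0.30 for Klhl31, -0.51 for Klhl33 and -1.12 for Klhl34. The first 4 are small beside their intervals, and their sign changed in part with the scaling. For Klhl40 the fold of replicate 1 over replicate 2 was 0.980 with an interval of 0.807 to 1.19, and for Klhl41 it was 0.990 with an interval of 0.734 to 1.34. For Klhl34, with 8 and 14 reads, the fold of replicate 2 over replicate 1 was 2.17 with an interval of 0.850 to 5.97. Klhl33 depended on which models were counted: it was 1.42-fold higher in replicate 2 with all models (0.973 to 2.09, adjusted p = 0.254), and its log2 ratio was -1.19 (adjusted p = 0.0248) when Genomic models, described below, were left out. Over all alternatives the adjusted p of Klhl33 ran from that value to 1. The median log2 ratio of the 8 members was -0.19, beside -0.0031 over all tested genes. Klhl31 and Klhl33, the longest members, lie in the 2 groups of longest genes, whose own median log2 ratio of -0.31 is close to that of Klhl31.

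**Figure D2:**
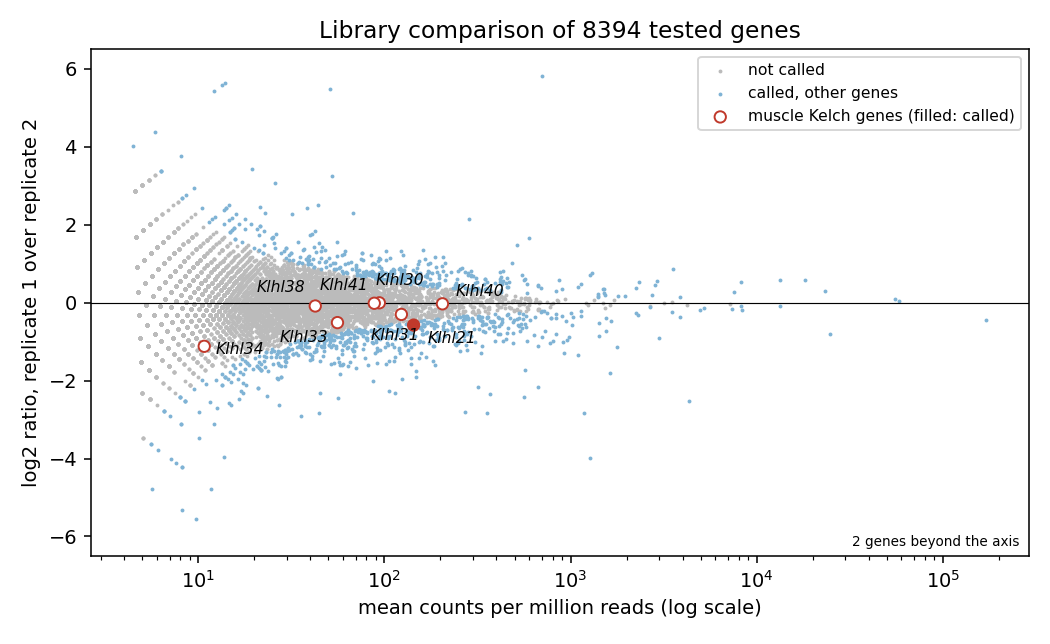
Log2 ratio of replicate 1 over replicate 2 (vertical axis) against mean CPM (log axis) for the 8394 tested genes, with called genes in blue, other genes in grey and the muscle Kelch genes ringed in red (filled where called). Klhl21 at -0.57 is the only filled point, and Klhl34 at -1.12 lies in the wide scatter of genes with few reads.

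How far the reads reached into each transcript differed more between the members than between the libraries. The tables put each model of an annotated gene in 1 of 5 classes. Known is an annotated chain of introns, and ISM is an incomplete part of such a chain. NIC joins annotated splice sites in a combination that is not annotated, and NNC has at least 1 splice site that is not annotated. Genomic covers other models assigned to the gene. Not every model kept to these meanings. An ISM model of Klhl40 with 7 reads in replicate 1 held only an intron absent from the annotated Klhl40 transcripts. A Klhl33 chain of 4284 nt was NIC in replicate 1 and NNC in replicate 2. Model ends are those written in the deposited annotation and need not be the ends of each read. The coding part of a gene was taken from its coding transcript with the most reads. For Klhl33, which has 3 annotated coding transcripts, that was Klhl33-204. A model that holds the whole of this coding part can encode the full protein of that transcript. Such models took 92.2% and 92.8% of reads in replicates 1 and 2 for Klhl41 and 89.4% and 92.8% for Klhl40. They took 77.1% and 81.8% for Klhl30, 56.3% and 73.2% for Klhl38 and 52.6% and 66.7% for Klhl21. The shares were lowest for Klhl31, at 39.5% and 44.5%, and Klhl33, at 22.2% and 25.8%. For the single-exon Klhl34 they were 100% and 100%. A read given to its annotated exon always counts as whole, so this share cannot show how far its reads reached.

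Between the libraries, the share of Known models could be tested for 7 members with at least 20 reads in each. By Fisher's exact test, with p-values adjusted by Benjamini-Hochberg over 4057 genes, 0 of the 7 were called, beside 1.01% of all genes tested. At an unadjusted p under 0.05 there were 2, Klhl21 and Klhl33. For Klhl21 the Known share was 50.4% in replicate 1 (Wilson 95% interval 42.0 to 58.7) and 65.4% in replicate 2 (57.8 to 72.3; adjusted p = 0.356), and for Klhl33 it was 33.3% (22.2 to 46.6) and 54.8% (42.5 to 66.6; adjusted p = 0.560). The median gene had a Known share of 81.1% in replicate 1 and 82.1% in replicate 2. Klhl40 and Klhl41 were above this median in both libraries and the other 5 tested members below it in both. Among Known, NIC and NNC reads, the share of the leading intron chain differed for 0 of the 7 members by the same test, also at an unadjusted p under 0.05, beside 0.454% of 3521 genes called. It was 98.1% and 100% for Klhl31, 95.4% and 96.2% for Klhl40, 100% and 98.7% for Klhl41, 92.6% and 93.0% for Klhl30 and 90.7% and 93.8% for Klhl21. It was lowest for Klhl33, at 52.4% and 40.5%. The leading chain was chosen over both libraries and was Klhl33-204 there. In replicate 2 it held 15 reads, fewer than the 18 of the 1-exon Klhl33-203.

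**Figure D3:**
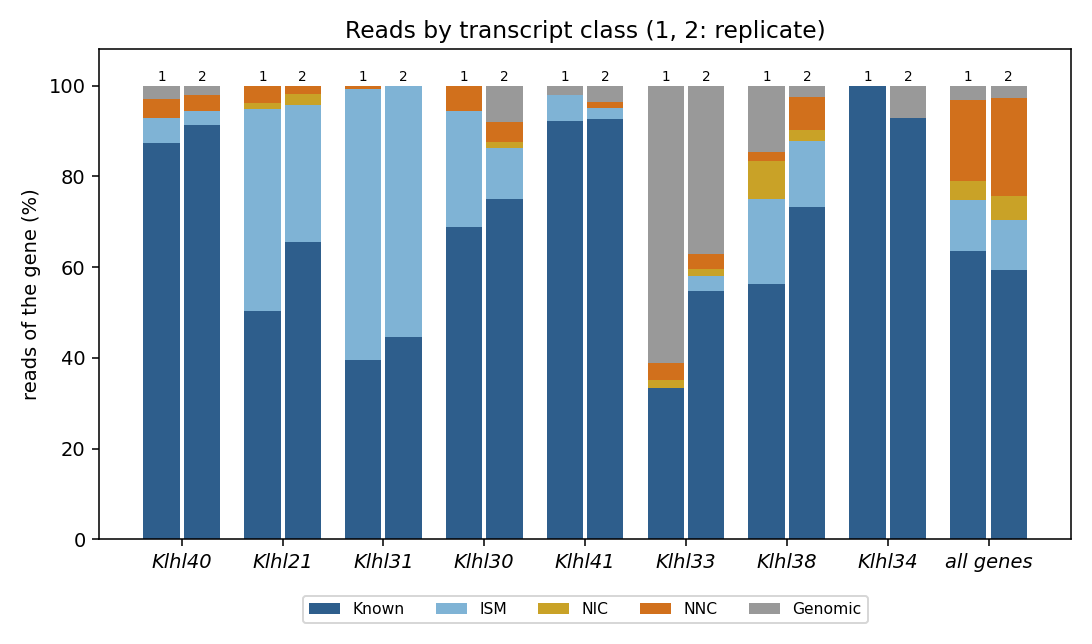
Percentage of each gene's reads (vertical axis) in models of class Known, ISM, NIC, NNC and Genomic, for the 8 muscle Kelch genes and for all annotated genes, with replicate 1 in the left bar and replicate 2 in the right. Klhl40, Klhl41 and Klhl34 are almost all Known, ISM models take 59.7% and 55.5% of Klhl31, and Genomic models take 61.1% and 37.1% of Klhl33.

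Most reads of Klhl31 did not cross a splice junction. The gene lies on the plus strand at chr9:77636500-77660127 (mm10) and has 3 exons, of which the last is 5001 nt long and holds 38.4% of the coding part and a 3′ UTR of 4268 nt. A model of the last exon alone, classed ISM, took 74 of 129 reads in replicate 1 and 67 of 128 in replicate 2, more than the full chain with 51 and 57 reads. A partial chain starting in exon 2 held 3 reads in each library. Single-exon reads therefore made up 57.4% (48.7 to 65.6) and 52.3% (43.7 to 60.8). The junction that tells both kinds apart joins coding exon 2 to coding exon 3, and is shown because reads of the last exon alone lack it; the first 15 bases are the end of exon 2 at chr9:77651175 and the capitals are the first 15 bases of exon 3 from chr9:77655127.
Klhl31 exon 2 to exon 3: cagcaatttctgcagGTACGATCCCCGCTT

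Klhl21 showed partial chains from exon 2 and a rare chain without it. The gene lies on the plus strand at chr4:152008803-152017680 and has 4 exons. The full chain held 68 reads in replicate 1 and 106 in replicate 2. A 3-exon chain starting at exon 2 held 41 and 35 reads, and a model of the last exon alone held 17 and 10. The full chain had more reads in replicate 2, and both partial models had fewer. An added chain joined exon 1 straight to exon 3 in 2 and 4 reads; it leaves out the 406 nt of exon 2, all coding and not a multiple of 3, so the frame after the junction differs from that of the annotated protein. A 91-nt intron within the last exon, at chr4:152016932-152017022, was in 5 and 4 reads. The annotated and the added junction share the end of exon 1 (at chr4:152009963, lower case) and differ in the exon that follows (capitals).
Klhl21 exon 1 to exon 2: acatctacgtgacggGCGGGTCTGATGGCT
Klhl21 exon 1 to exon 3: acatctacgtgacggGGATGACTCTGCCGA

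Klhl33 was read mainly as single-exon models. The gene lies on the minus strand at chr14:50888582-50897507. Its longest chain, Klhl33-204 with 4 exons, held 11 reads in replicate 1 and 15 in replicate 2. Klhl33-203, a 1-exon transcript that starts near the same end of the gene and reads on into the first intron, held 6 and 18 reads. A Genomic model at the 3′ end of the gene, 208 nt long in replicate 1 and 324 nt long in replicate 2, held 33 and 23 reads, and covers none of the coding part. It is this model whose removal gave the call described above. The bases at the end of exon 1 are shown with both continuations in capitals, into exon 2 and into the intron, since they part the chains. Exon 1 ends at chr14:50896448 and exon 2 begins at chr14:50893299.
Klhl33 exon 1 to exon 2: gctaccgcctgcgggTGCACCGAGTAGCCC
Klhl33 exon 1 into intron 1: gctaccgcctgcgggGTGAGAGTCTGTGAG

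Klhl40 and Klhl41 were read mostly as 1 chain each. The Klhl40 chain of 6 exons (plus strand, chr9:121777607-121783818) held 206 and 177 reads, and the Klhl41 chain of 6 exons (plus strand, chr2:69670120-69684230) held 94 and 77. The first coding junction of each is shown as a mark of these chains, with exon 2 in capitals.
Klhl40 exon 1 to exon 2: gcttacttcctgcagTTTGACCACTTGGAC
Klhl41 exon 1 to exon 2: tcgtactttttccagCTTGATAACGTAACA

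Some Klhl40 models ran on past the annotated end of the gene. Models ending over 50 nt beyond it held 14 reads in replicate 1, each 2211 nt beyond, and 12 reads in replicate 2, at 2209 to 10364 nt beyond. An intron of 82 nt, at chr9:121784351-121784432, was in 12 and 6 reads. It is in no annotated Klhl40 transcript of GENCODE M21. Transcripts of other genes and of RefSeq were not searched for it. Apart from 2 reads of replicate 2, the models past the gene end have exon bases at or near the 3′ end of Hhatl, a gene on the minus strand. That end lies 197 nt past the end of the main Klhl40 transcript, and Hhatl held 243 and 193 reads (208 ± 13.8 CPM). Those 2 reads end 10364 nt beyond Klhl40 and pass over the Hhatl 3′ end by an intron, chr9:121782677-121790922. A shorter intron, chr9:121782677-121784051, in 1 read of each library, also spans the last base of Hhatl, chr9:121784016. How the strand of a read was assigned is not given in the sources used here, and 83 and 59 of the Hhatl reads were in single-exon models. Of the Klhl40 reads past the gene end, 7 of 14 in replicate 1 and 11 of 12 in replicate 2 were in models that also hold an annotated Klhl40 intron, and 0 were in single-exon models. A 7-exon chain with the whole coding part and the 82-nt intron held 5 and 3 reads. The other 7 reads of replicate 1 and 1 read of replicate 2 were in 2-exon models whose only intron is the one of 82 nt. The RefSeq span of Klhl40 (GRCm38.p6) ends 7382 nt beyond the GENCODE M21 end, while for Klhl38 the 2 annotations end at the same base.

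Klhl38 (minus strand, chr15:58314573-58324169) also had models past its annotated 3′ end. Such models held 19 of 48 reads in replicate 1 and 8 of 41 in replicate 2 and reached up to 1057 nt beyond it. Its full chain of 4 exons held 27 and 30 reads. A chain without exon 2, which is 1351 nt long and holds the start codon, held 4 reads and 1 read. In replicate 1 a single-exon Genomic model that shares 1 base with the annotated gene, at its 3′ end, held 6 reads, and a 3-exon ISM chain also held 6. Klhl30 (plus strand, chr1:91351016-91362416) was read as its full chain of 8 exons in 75 and 66 reads, as a 7-exon chain with the whole coding part in 8 and 6 reads and as a 3-exon chain in 6 and 2 reads. The last exon alone held 12 reads of replicate 1, and a single-exon Genomic model within it held 7 reads of replicate 2. Klhl34 (plus strand, chrX:157818435-157820369) was read as its annotated exon in 8 and 13 reads. Over all members the models held 31 introns absent from the annotated transcripts of their own gene, of which 10 were in both libraries.

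The largest signal at any of these genes lay on the strand opposite Klhl31. Antisense models over the gene held 2035 reads (1820 CPM) in replicate 1 and 3231 reads (3311 CPM) in replicate 2. The mean of 2566 ± 1054 CPM is above the 763 CPM of the 8 muscle Kelch genes summed. For each Klhl31 read there were 15.8 opposite-strand reads in replicate 1 and 25.2 in replicate 2. The opposite-strand reads were 1.97-fold higher in replicate 2 (1.86 to 2.08, counting error only, no replicate check), and Klhl31 itself 1.23-fold (0.956 to 1.58).

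Apart from 2 reads, the signal lies wholly in the last exon of Klhl31, within its 3′ UTR. In replicate 1 it was written as a model at chr9:77656561-77657277 (717 nt, 1985 reads) and an adjoining model at chr9:77657277-77658182 (906 nt, 48 reads). In replicate 2 it was 1 model at chr9:77656524-77660127 (3604 nt, 3231 reads), whose upstream end is the annotated last base of Klhl31. Elsewhere in the gene, 2 antisense models within the first intron, from chr9:77637122 and chr9:77641146, held 1 read each in replicate 1. The lower ends of the main models are 37 bases apart and lie 702 and 665 bases past the Klhl31 stop codon. All of these models have a single exon, so no splice site fixes their strand, which rests on the authors' assignment.

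**Figure D4:**
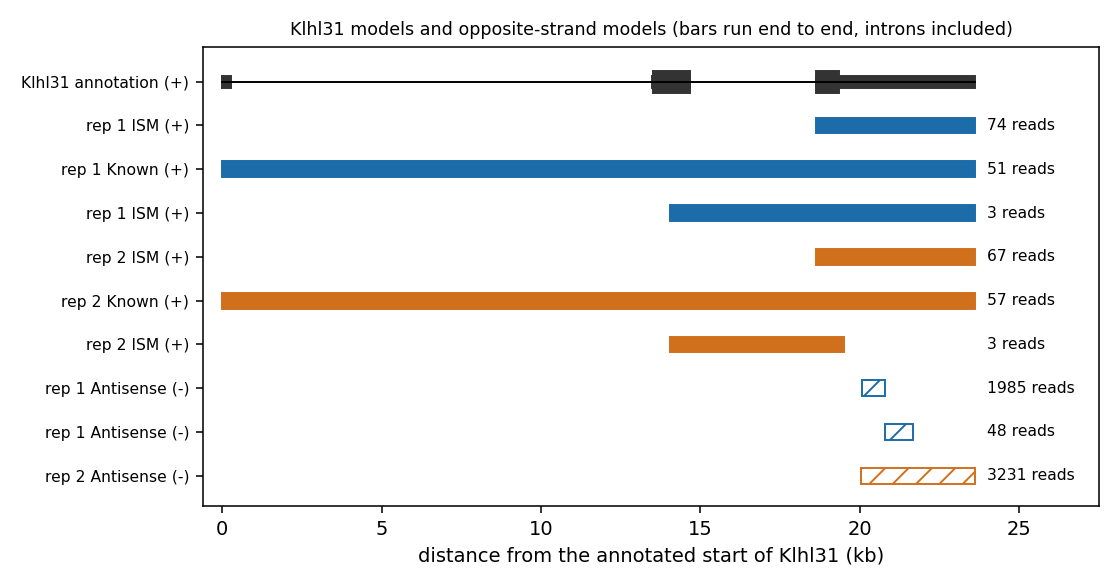
Annotated Klhl31 exons (black, thick where coding) with the gene's models of at least 3 reads (filled) and the opposite-strand models of at least 5 reads (hatched), in replicate 1 (blue) and replicate 2 (orange), by distance from the annotated gene start in kb. The opposite-strand models of 1985 and 3231 reads lie within the last exon, which is also the whole of the models of 74 and 67 Klhl31 reads.

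Few genes carried as much opposite-strand signal. By reads the locus of the main model ranked 2 of 6888 antisense loci in replicate 1 and 2 of 6631 in replicate 2. In replicate 1 the adjoining model of 48 reads was a separate locus, at rank 27. All antisense reads over Klhl31 together were 8.99% and 10.9% of all antisense reads. Among 5881 genes with at least 10 reads in each library, Klhl31 ranked 2 by the ratio of opposite-strand to gene reads. Of these genes 1592 had antisense reads in both libraries, with a median ratio of 0.0678, and 26 had a ratio over 1 in both.

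**Figure D5:**
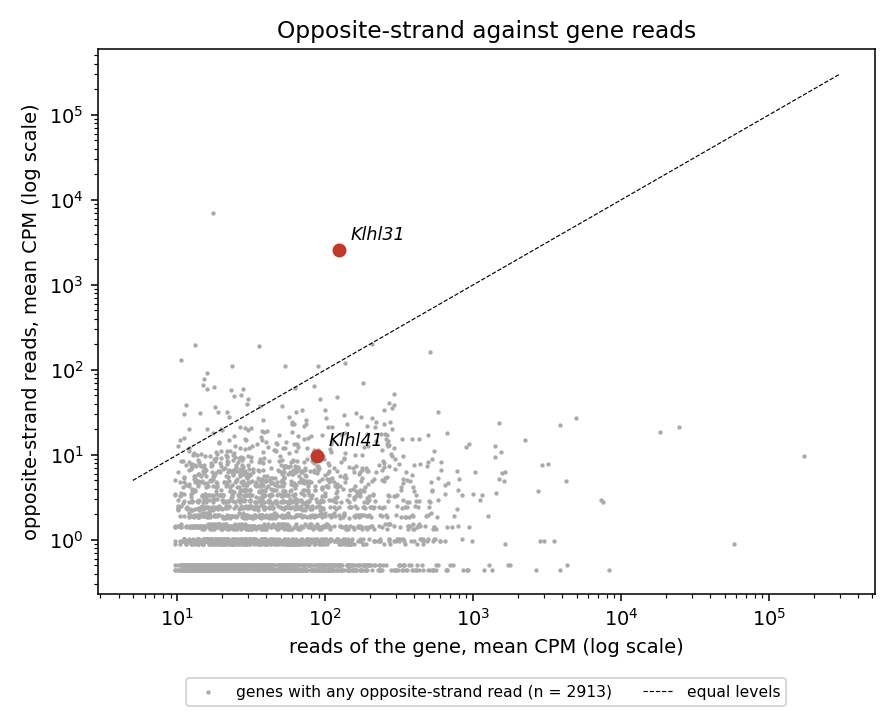
Mean CPM of opposite-strand reads (vertical log axis) against mean CPM of the gene (horizontal log axis) for the 2913 genes with at least 10 reads in each library and any opposite-strand read; the dashed line marks equal levels. Klhl31 at 2566 against 123 CPM lies far above the line, and Klhl41 at 9.79 against 88.2 CPM far below it.

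The sequence of the locus was described on the minus strand, without printing it, since it is UTR of Klhl31. It holds a run of 24 A, at chr9:77656645-77656668, which lies 84 bases before the lower end of the main model of replicate 1 and 121 bases before that of replicate 2. The poly(A) hexamer AATAAA was in none of the last 50 bases of the 3 models. The variant ATTAAA was in that window of the replicate 2 model only, 22 bases before its end. In the last 50 bases of 66691 annotated coding transcripts, AATAAA was in 38.6% and ATTAAA in 11.4%, beside 5.34% and 4.25% on the other strand of the same windows. Over matches of at least 100 nt, 395 bases of the locus resembled annotated transcripts of 2521 other genes, at most at 91% identity. Shorter matches at 95% identity or more numbered 19, in transcripts of 8 genes, and were 45 to 60 nt long. A match of these letters is a description, and whether the reads came from priming within the RNA or from transcripts of another locus was not tested.

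The other 7 members had 20 opposite-strand reads between them, all over Klhl41. The Klhl41 antisense models held 7 reads in replicate 1 (6.26 CPM) and 13 in replicate 2 (13.3 CPM), or 0.0686 and 0.157 per Klhl41 read. Klhl40, Klhl30, Klhl33, Klhl34, Klhl38 and Klhl21 had 0 antisense reads in both libraries, which allows up to 2.68 and 3.07 CPM. At the 3′ end of Klhl41 single-exon models held 4 and 7 reads, and in an intron, from chr2:69680743, 3 reads and 1 read. At its start, a 2-exon model on the minus strand, at chr2:69668206-69670120, begins at the first base of Klhl41 and runs away from it. It held 7 reads in replicate 1, where the tables class it as intergenic, and 3 in replicate 2, where they class it as antisense. In replicate 2 another 2 antisense models begin at the same base, reach down to chr2:69659957 and chr2:69668679 and held 1 read each. The class, and so the count above, differed between the libraries for the same chain.

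The stretch before the Klhl41 start is shown because this model runs through it on the other strand. It is the 250 bases before the Klhl41 start, chr2:69669870-69670119 on the plus strand (RefSeq, GRCm38.p6). Capitals mark 4 E-boxes, the letters CANNTG bound by MyoD and its relatives, and 1 match to the MEF2 motif, 63 to 54 bases before the start.
Klhl41 upstream: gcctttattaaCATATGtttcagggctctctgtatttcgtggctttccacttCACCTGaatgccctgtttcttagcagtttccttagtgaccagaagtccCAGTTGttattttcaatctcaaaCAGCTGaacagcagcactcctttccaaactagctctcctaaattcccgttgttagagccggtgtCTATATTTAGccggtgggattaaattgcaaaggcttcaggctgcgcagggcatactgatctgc

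Promoter sequences of 300 bases, 250 before and 50 after the start, matched 6 of the 8 members. On either strand, CANNTG was in 5 of the 6 and in 72.3% of all 32851 promoters of that length. The MEF2 motif was in 2 of the 6 (Klhl41 and Klhl33) and in 3.19% of all, TATAAA in 1 of the 6 (Klhl21) and in 13.6% of all, and the CArG box in 0 of the 6 and in 1.63% of all. A member was counted if any of its promoters held the motif, while the shares of all are per promoter. Klhl33 had more than 1 promoter, and not each of them held the MEF2 motif. A MEF2 match can hold the letters TATAAA. A match is no evidence of binding.

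Genes that work with these proteins were read in the same libraries. Of 6 known partners of muscle Kelch proteins, Neb, Lmod3, Nrap, Flnc and Ikbkb were tested, and Aurkb, the mitotic kinase bound by Klhl21, was at 0 in both libraries. Higher in replicate 2 were 3 of the 5, beside 7.06% of all genes, and 0 were higher in replicate 1. Nrap, a scaffold of forming myofibrils, held 632 reads (565 CPM) and 1011 reads (1036 CPM), 1.98-fold higher in replicate 2. Neb, the giant thin filament ruler, was 1.31-fold higher and Flnc, filamin C, 1.50-fold. The median log2 ratio of the 5 was -0.59, beside -0.0031 over all tested genes. Lmod3 (102 ± 19.3 CPM) and Ikbkb (27.6 ± 8.73 CPM) were not called. The slow fibre markers and the length trend given above move the same way; their part was not tested. With the scatter between the libraries added in edgeR's exact test, 0 of the 5 partners stayed called.

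The Cul3 machinery that the Kelch proteins plug into was read in full, with 22 of 22 genes tested. Higher in replicate 1 were 2 of the 22, beside 4.61% of all genes, and higher in replicate 2 were 2, beside 7.06%. The other 18 were not called, and the median log2 ratio of the 22 was 0.082. Cul3 itself held 342 reads (306 CPM) and 296 reads (303 CPM), 305 ± 1.81 CPM, and stood above every muscle Kelch gene. The other abundant members were the Nedd8-conjugating enzyme Ube2m (216 ± 44.8 CPM) and the COP9 signalosome subunit Cops4 (204 ± 9.50 CPM). Higher in replicate 2 were the cullin exchange factor Cand1 (3.27-fold, 11 and 29 reads) and its muscle-enriched relative Cand2 (1.90-fold, 77 and 118 reads). Higher in replicate 1 were the signalosome subunit Gps1 (135 and 71 reads) and the neddylation cofactor Dcun1d5 (184 and 106 reads), at 0.653 and 0.715 of their replicate 1 level in replicate 2.

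Of 11 other nemaline myopathy genes all were tested, with 2 higher in replicate 1, beside 4.61% of all genes, and 5 in replicate 2, beside 7.06%, and a median log2 ratio of -0.50. Acta1, skeletal actin, and Tnnt3, fast troponin T, were higher in replicate 1, with log2 ratios of 0.088 and 0.37. Tnnt1, slow troponin T (5.37-fold), Tpm3, slow tropomyosin (5.06-fold), Tpm2 (2.20-fold), Myo18b (1.45-fold) and Neb were higher in replicate 2. Tnnt1 and Tpm3 are also on the slow fibre list, so this count is not separate from it. The Kelch gene Kbtbd13 held 12 and 24 reads and was not called. Of the 42 other BTB-Kelch genes 34 had reads and 20 were tested. Klhl2 was higher in replicate 2 (3.54-fold, 7 and 20 reads), 1 of 20 beside 7.06% of all genes. None was higher in replicate 1, beside 4.61%, and the median log2 ratio of the 20 was -0.17. With edgeR's dispersion added, the calls that stayed in these lists and in the Cul3 machinery were Tnnt1 and Tpm3, 2 of the 7 nemaline myopathy genes called.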

How the data were processed

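Per the labels, RNA of 2 gastrocnemius libraries was read as long reads on assembly mm10. The authors deposited raw counts of reads per transcript model, 1 table per library, listing only models with at least 1 read; other deposited columns, per the file headers, give exons, length and 1-based position of each model. Models combine GENCODE M21 with models added per library that carry TALON names in the deposited annotation. The sources used here do not give the aligner, filters, strand assignment or versions.

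Counts were summed per annotated gene, spike-ins left out, and CPM was computed on what remained. The 8394 genes with 10 or more reads in all were compared by a 2-sided exact binomial test against TMM effective library sizes (factors 1.04 and 0.961; edgeR 4.0.16, R 4.3.3) with Benjamini-Hochberg adjustment over all of them and a threshold of 0.05. Shares were compared by 2-sided Fisher tests for genes with at least 20 reads in each library; a 0 was bounded by 3 reads, and intervals are 95% and cover counting error only. With 1 library a side no quasi-likelihood fit was possible. Alternatives were DESeq2 1.42.0 size factors and edgeR's exact test with the common dispersion (0.0622), estimated over both libraries as 1 group. Tests were also run on simulated counts that held counting error only. That run could not show how the tests behave with scatter between libraries. Sequences came from GENCODE M21 transcripts and RefSeq promoters; BLAST 2.17.0 matched the Klhl31 locus to transcripts (E-value 1e-10). Python 3.11.15, numpy 2.4.6, pandas 2.3.3 and scipy 1.17.1 were used. The text names all 8 members, all antisense models over them, models with at least 5 reads, and genes of the lists that were called or among the 3 most abundant; smaller models and other list genes named were chosen after their values were seen. The members and lists were chosen with earlier results of these data known.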

Additional observations from a re-analysis of the deposited data

How the results depend on the processing

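The main limit is that 1 group of 2 libraries leaves counting error as the only error known, and that members with under 100 reads could show only large folds. No paired analysis was possible because the series has 1 group. When the common dispersion was added in edgeR's exact test, 24 genes were called in place of 980, all 24 of them among the 980, and 0 members. The dispersion was estimated from the same 2 libraries taken as 1 group. It therefore holds the difference under test, and a fall in calls was built in. Members called were also 0 with total reads as the scale and 0 with centring by length. They were 2 (Klhl21 and Klhl33) both with Known, NIC and NNC models only and without Genomic models. Over all genes 920 and 1007 were called in these 2 settings, beside 980 in the main comparison. Scaling by total reads shifted every log2 ratio by 0.11 and turned the split of 387 genes higher in replicate 1 and 593 in replicate 2 into 586 and 452. It turned the log2 ratios of uncalled members positive for Klhl40 (0.086), Klhl41 (0.10), Klhl30 (0.11) and Klhl38 (0.031). DESeq2 size factors did so for Klhl40 (0.020), Klhl41 (0.034) and Klhl30 (0.046), leaving out Genomic models for Klhl41 (0.025) and Klhl30 (0.13), and centring by length for Klhl31 (0.011) and Klhl30 (0.0019). The cause was not tested. The summed level of the 8 members was 652 CPM over Known, NIC and NNC models and 869 CPM over Known models, each relative to the reads of those classes, and 734 to 791 CPM in single libraries; the opposite-strand level over Klhl31 was 1820 to 3311 CPM in single libraries. With all classes counted, 68 genes in place of 16 differed in the share of the leading model, and the difference of replicate 1 minus replicate 2 turned to 5.02 percentage points for Klhl31 and -0.614 for Klhl41, neither called.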
